A study of Mus musculus with 18 samples.

Results

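The genes described here are Casp9, Bcl2l15, Apaf1, Bax, Bak1, Bcl2l11, Bcl2, Bcl2l1 and Mcl1, 9 of the 45706 genes counted, found by their symbols. Casp9 and Bcl2l15 were picked because their change over 24 h differed between wt and Hmga2 KO clones in these same libraries, so their values are given as a description without a test. The other 7 were taken as the family of the intrinsic apoptosis pathway and were tested together with all 16619 genes that passed the filter on low counts. All 9 genes passed that filter, although Bcl2 did so only through the 3 libraries of KO#2 at 0 h, the group where it was highest.

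In the intrinsic pathway, BH3-only proteins sense damage or loss of survival signals. They engage the guardians Bcl2, Bcl2l1 (Bcl-xL) and Mcl1, and release or activate Bax and Bak1. Bax and Bak1 then open pores in the outer mitochondrial membrane. Cytochrome c leaves through these pores and binds Apaf1, which assembles into the apoptosome and activates the initiator caspase Casp9. Pluripotent cells are known for a low threshold for this pathway and for their dependence on Mcl1 and Bcl2l1.

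RNA was sequenced from mouse induced pluripotent stem cells (iPSCs) at 0 h and 24 h of induction into epiblast-like cells (EpiLCs). At each time there were 3 independent biological replicates of wt cells, of the Hmga2 knockout clone KO#1 and of the clone KO#2, 18 libraries in all, and each line in these libraries was 1 clone. At 0 h the iPSCs grew on inactivated fibroblast feeders with leukaemia inhibitory factor and 2 kinase inhibitors. The labels name the induction as the treatment of the 0 h libraries too, and 0 h is taken here from the time label as the start, before induction. For the induction the cells were plated without feeders on Geltrex in a medium with Activin A and bFGF, so feeders, medium and time changed together and cannot be told apart.

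The libraries held 3466436 to 23872837 counts, so that 3 counts were worth 0.116 to 0.983 CPM (counts per 1000000, with the library sizes scaled by TMM factors). The share of counts on protein-coding genes was 41.3 to 84.7%, and at 24 h it was 41.3 to 63.4% in wt and KO#1 and 82.3 to 84.7% in KO#2. Hmga2 itself had 5.76 ± 0.23 CPM in wt at 24 h and 10.4, 3.02 and 3.47 CPM in KO#2 (log2 fold change -0.04, adjusted p = 0.967), so the last are called the KO#2-labelled libraries here. At 0 h these libraries had less Hmga2 than wt (4.73 ± 3.25 against 17.7 ± 4.53 CPM, log2 fold change -1.90, adjusted p = 0.0230). Of their 24 h values, 3.02 and 3.47 CPM lay below the lowest wt library (5.51 CPM) and 10.4 CPM above the highest (5.93 CPM). The study assayed Hmga2 protein in wt and KO cells by western blot, while these values are RNA. Over 24 h in wt Hmga2 itself fell (log2 fold change -1.61, adjusted p = 0.0362). In KO#1 it was lower than in wt without overlap at both times, but did not pass the test (log2 fold change -1.71, adjusted p = 0.124 at 0 h and -1.36, adjusted p = 0.220 at 24 h). Naive pluripotency markers fell over 24 h in all 3 lines (8 of 10 genes called lower in each, beside 24.7%, 20.6% and 13.3% of all genes in wt, KO#1 and the KO#2-labelled libraries) and primed markers rose (7 of 8, beside 26.0%, 20.1% and 12.7%). At 24 h, 5 of the 10 naive markers were higher in KO#1 than in wt and 6 in the KO#2-labelled libraries, where 6.25% and 21.3% of all genes were higher. The summed level of 8 fibroblast markers was 110 to 390 CPM in wt, 183 to 514 in KO#1 and 331 to 897 in the KO#2-labelled libraries at 0 h, against 19.0 to 34.5, 38.7 to 51.8 and 70.9 to 219 CPM at 24 h. Of these markers Dcn was at 0 in the 3 wt libraries at 0 h and in 1 KO#1 library at 0 h. Unlike the sum, its mean was higher at 24 h, at 5.79 CPM against 0 in wt. The means were 1.33 against 0.223 CPM in KO#1 and 7.17 against 4.04 CPM in the KO#2-labelled libraries. At 24 h, 4 of the 8 primed markers were lower than wt in KO#1 and 2 in the KO#2-labelled libraries, beside 3.60% and 16.0% of all genes, and the latter 2 of 8 lay near that background. Of 5 tested primitive endoderm markers, 1 was higher than wt in KO#1 and 5 were in the KO#2-labelled libraries at 24 h, beside the same 6.25% and 21.3%, and the summed level of the list was 8.55 to 15.5 CPM against 2.55 to 5.14 in KO#1 and 1.17 to 1.76 in wt. The part of these marker lists in the values of the apoptosis genes was not tested.

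The promoters of the pair chosen for their response are shown because they differ in the density of CpG dinucleotides, the sites of DNA methylation in mammals. The sequences are those of RefSeq for GRCm38.p6, from upstream towards the gene start on the plus strand, with CpG in capitals. For Casp9 they cover the 250 bases at chr4:141793362-141793611. For Bcl2l15 they cover the 155 bases at chr3:103832446-103832600 up to the start of the annotated gene.
Casp9: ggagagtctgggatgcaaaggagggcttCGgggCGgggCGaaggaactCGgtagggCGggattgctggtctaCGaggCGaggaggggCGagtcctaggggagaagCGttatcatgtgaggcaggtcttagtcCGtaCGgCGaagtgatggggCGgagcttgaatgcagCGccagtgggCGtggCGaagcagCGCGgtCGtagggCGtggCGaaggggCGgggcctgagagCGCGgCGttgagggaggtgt
Bcl2l15: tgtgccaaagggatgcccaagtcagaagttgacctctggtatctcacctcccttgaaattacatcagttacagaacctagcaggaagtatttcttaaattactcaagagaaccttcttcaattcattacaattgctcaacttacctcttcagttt

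The Casp9 window held 25 CpG dinucleotides and 66.0% G and C bases, and 89.7% of the 250-base windows of 27025 genes held fewer CpG. The full 250-base window of Bcl2l15 held 0 CpG and 38.8% G and C, where the median window of all genes held 6. This window ends at chr3:103832695, past the start of the annotated gene at chr3:103832601, so part of it lies inside the gene. Among the other members the windows of Apaf1 (42), Bcl2 (36), Mcl1 (26), Bcl2l11 (24, the first of its 2 windows), Bax (14) and Bak1 (8) held CpG, and that of Bcl2l1, the first of its 3 windows, held 0. The motif GGGCGG, searched on both strands, occurred 4 times in the Casp9 window and 0 times in that of Bcl2l15, and 32.9% of all windows held it. Neither window held TATAAA (in 13% of windows), CCAAT (34.5%) or CACGTG (6.05%).

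Casp9, the initiator caspase of the apoptosome, was lower at 24 h than at 0 h in wt cells and lay nearer to its starting level in KO#1 and the KO#2-labelled libraries. The gene (ENSMUSG00000028914) lies at chr4:141793612-141815976 on the plus strand. At 0 h the wt libraries had 32.4, 26.9 and 33.2 CPM, KO#1 had 33.1, 33.2 and 22.3 CPM, and the KO#2-labelled libraries had 16.1, 16.7 and 22.8 CPM. The wt and KO#1 values overlapped, while all 3 libraries labelled KO#2 lay below every wt library. At 24 h the wt libraries had 5.63, 4.10 and 7.90 CPM, KO#1 had 15.4, 19.2 and 27.5 CPM, and the KO#2-labelled libraries had 17.7, 12.1 and 13.5 CPM. Every KO#1 and KO#2-labelled library thus lay above every wt library, and the values of KO#1 and the KO#2-labelled libraries overlapped with each other.

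On the log2 scale the fitted change of Casp9 over 24 h was -2.38 in wt, -0.50 in KO#1 and -0.36 in the KO#2-labelled libraries. The level at 24 h was 20.7 ± 6.17 CPM in KO#1 and 14.4 ± 2.88 CPM in the KO#2-labelled libraries against 5.88 ± 1.91 CPM in wt (SD, n = 3 each), log2 differences of 1.81 and 1.28. The differences in response were 1.87 and 2.02. In the KO#2-labelled libraries the level at 0 h was 18.5 ± 3.68 CPM against 30.8 ± 3.44 CPM in wt, a log2 difference of -0.73 that was -0.23 with offsets corrected for GC content and gene length. With these offsets the change in wt was -1.86, the difference of KO#1 from wt at 0 h turned from -0.07 to 0.10, and the difference in response of the KO#2-labelled libraries was 1.56. In bulk RNA, a loss of cells that express a gene and a lower level per cell cannot be told apart. The feeder and naive marker values given above differed in some of these contrasts but not in all, and their part in the Casp9 values was not tested. The exons of Casp9 share 94 bases (1.81%) with the antisense genes Cela2a and Ctrc.

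Bcl2l15, a Bcl2-like protein whose role in cell death is less settled, was close to undetected except in KO#1 and the KO#2-labelled libraries at 24 h. The gene (ENSMUSG00000044165) lies at chr3:103832601-103854618 on the plus strand. At 0 h the wt libraries had 0, 0.917 and 1.00 CPM, KO#1 had 0.391, 1.25 and 0.350 CPM, and the KO#2-labelled libraries had 0.731, 0.494 and 1.25 CPM. These 9 libraries held between 0 and 26 counts each and their groups overlapped. The count of 0 in wt replicate 1 allowed a level of up to 0.983 CPM, counting error only. At 24 h the wt libraries had 2.23, 1.70 and 0.247 CPM (4 to 38 counts per library). In KO#1 the level was 90.2, 61.5 and 31.7 CPM (510 to 1228 counts per library). In the KO#2-labelled libraries it was 10.7, 17.98 and 8.86 CPM (204 to 465 counts). The 3 groups at 24 h did not overlap, with wt lowest and KO#1 highest.

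The fitted log2 change of Bcl2l15 over 24 h was 0.77 in wt, 6.78 in KO#1 and 3.92 in the KO#2-labelled libraries, and the differences in response from wt were 6.01 and 3.15. The log2 difference of the KO#2-labelled libraries from KO#1 was -2.29 at 24 h. The spread within KO#1 was wide, with a mean of 61.1 CPM and an SD of 29.3 CPM (n = 3), and its replicates ran from 31.7 to 90.2 CPM. The wt change depended on single libraries and was 0.12 without wt 24 h replicate 1 and 1.25 without wt 24 h replicate 3. With offsets corrected for GC content and length it was 0.15, and the difference of the KO#2-labelled libraries from wt at 0 h turned from 0.03 to -0.55. Of the Bcl2l15 exons, 569 bases (21%) are shared with Gm43064, a gene on the same strand, and reads in them cannot be assigned to either gene with certainty.

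**Figure D1:**
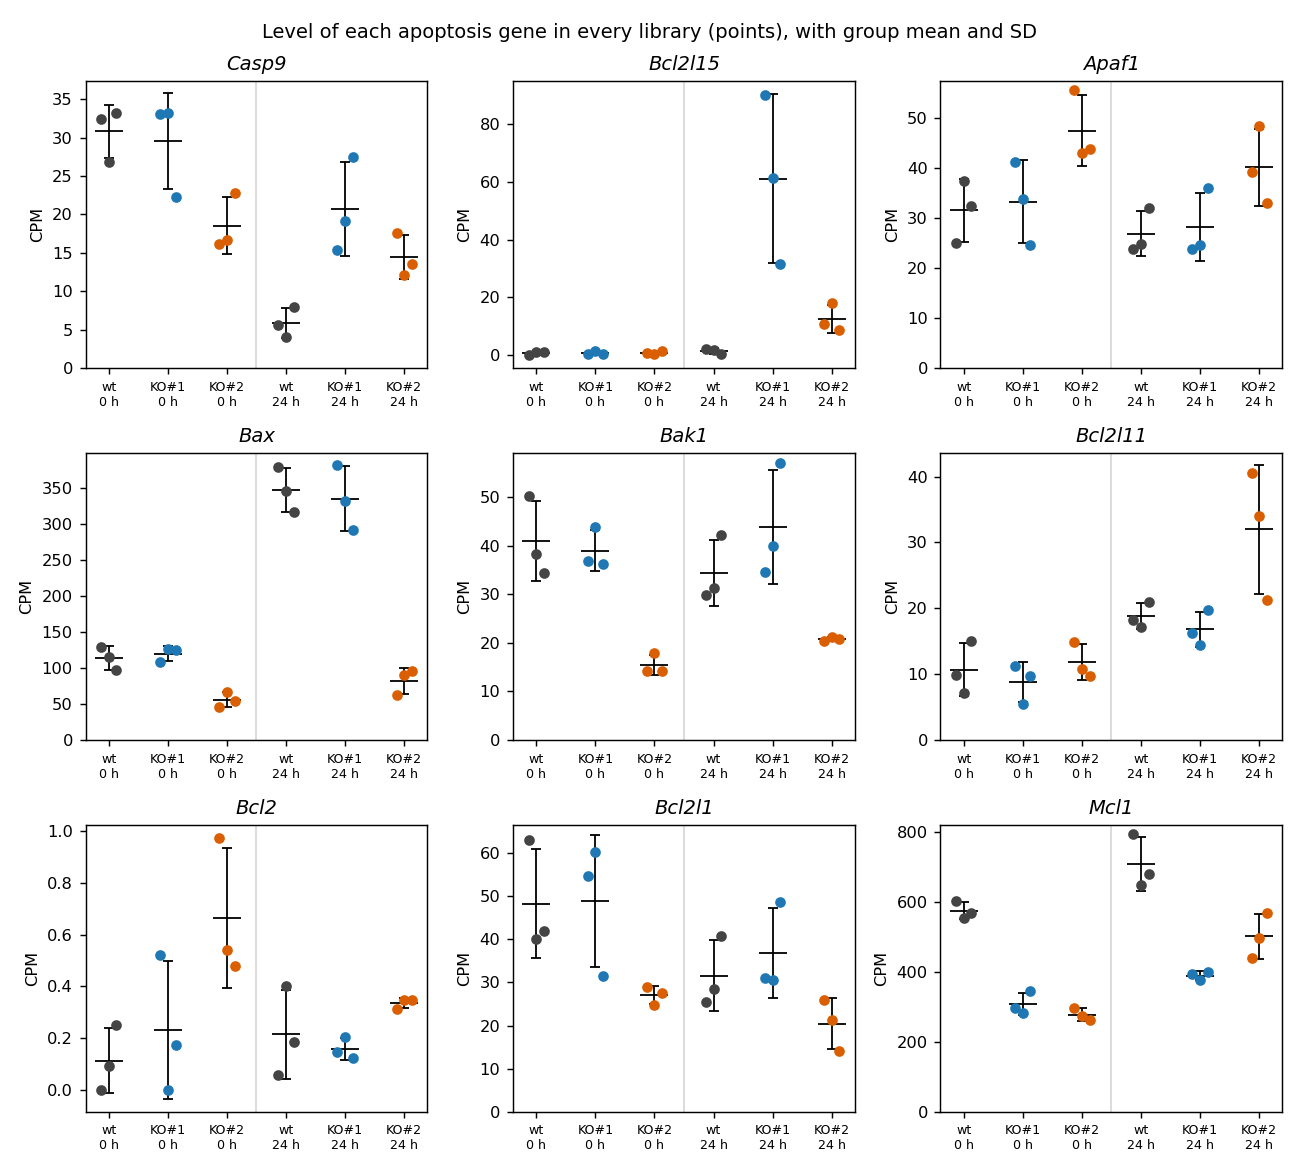
CPM of the 9 apoptosis genes in each library (points), with the group mean and SD (bars, n = 3), for wt, KO#1 and KO#2 at 0 h and 24 h; each panel has its own linear axis. Casp9 was lowest in wt at 24 h (4.10 to 7.90 CPM), Bcl2l15 was high only in KO#1 and the KO#2-labelled libraries at 24 h (8.86 to 90.2 CPM), and Bax at 24 h was below 100 CPM in the KO#2-labelled libraries alone.

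Levels of different genes were set side by side per kilobase of exon. At 0 h the order in wt was Mcl1 with 168 ± 7.09 CPM per kb, Bax with 72.1 ± 10.4, Bak1 with 17.0 ± 3.41, Bcl2l1 with 10.5 ± 2.77, Casp9 with 5.93 ± 0.662, Apaf1 with 3.49 ± 0.687 and Bcl2l11 with 1.33 ± 0.502, with no overlap between neighbours (SD, n = 3). Bcl2l15 and Bcl2 were last and their ranges overlapped. At 24 h in wt, Bax (220 ± 19.5 CPM per kb) and Mcl1 (207 ± 22.4) overlapped at the top, and Casp9 (1.13 ± 0.368) had dropped below Apaf1 and Bcl2l11 and overlapped with Bcl2l15. In KO#1 at 24 h, Bcl2l15 followed Bax and Mcl1 with 22.5 ± 10.8 CPM per kb and overlapped with Bak1 (18.2 ± 4.85). In the KO#2-labelled libraries at 24 h, Mcl1 (147 ± 18.7) was above Bax (52.2 ± 11.4) without overlap, and Bcl2l15, Bcl2l1, Apaf1, Bcl2l11 and Casp9 followed Bak1 with overlapping ranges from 1 neighbour to the next.

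Bax and Bak1 form the mitochondrial pores. Bax (ENSMUSG00000003873, chr7:45461697-45466898, minus strand) rose over 24 h in wt and in KO#1. It had 129, 115 and 96.8 CPM in wt at 0 h and 378, 345 and 316 CPM at 24 h, a log2 change of 1.61 ± 0.23 (SE, adjusted p = 2.96e-05). In KO#1 it had 107, 126 and 125 CPM at 0 h and 381, 332 and 291 CPM at 24 h, a log2 change of 1.49 ± 0.23 (adjusted p = 0.000112). The KO#2-labelled libraries had 45.8, 66.9 and 54.4 CPM at 0 h and 61.8, 89.4 and 95.6 CPM at 24 h, where the ranges overlapped and the change of 0.56 ± 0.22 did not pass the test (adjusted p = 0.0707). It did pass without KO#2 0 h replicate 2 (0.72, adjusted p = 0.0496), without KO#2 24 h replicate 1 (0.74, adjusted p = 0.0310) and with DESeq2 (0.60, adjusted p = 0.0274). Against wt, Bax was lower in the KO#2-labelled libraries by a log2 value of -1.03 ± 0.23 at 0 h (adjusted p = 0.00252) and of -2.07 ± 0.23 at 24 h (adjusted p = 6.88e-06), while in KO#1 it differed from wt by 0.07 ± 0.22 and -0.05 ± 0.22 (adjusted p = 0.892 and 0.948). The difference in the response of the KO#2-labelled libraries was -1.05 ± 0.32 and was not called by edgeR (adjusted p = 0.0856), whereas DESeq2 called it (adjusted p = 0.0246). Exons of Bax share 192 bases (12.2%) with Gm45808 on the same strand.

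Bak1 (ENSMUSG00000057789, chr17:27019810-27029009, minus strand) did not pass the test over time in any line (log2 changes of -0.24, 0.17 and 0.43 in wt, KO#1 and the KO#2-labelled libraries). It had 50.1, 38.3 and 34.4 CPM in wt, 36.9, 43.8 and 36.2 CPM in KO#1 and 14.2, 17.8 and 14.3 CPM in the KO#2-labelled libraries at 0 h. At 24 h the values were 29.8, 31.2 and 42.2 CPM in wt, 34.6, 39.9 and 57.0 CPM in KO#1 and 20.4, 21.1 and 20.9 CPM in the KO#2-labelled libraries. The last lay below every wt and KO#1 library at both times. Against wt the log2 differences were -1.40 ± 0.23 at 0 h (adjusted p = 0.000306) and -0.73 ± 0.22 at 24 h (adjusted p = 0.0165). The 24 h call was lost without wt 24 h replicate 3 (-0.53, adjusted p = 0.109) and without KO#2 24 h replicate 1 (-0.71, adjusted p = 0.0527), and its sign turned (0.29) with library sizes alone as the scale. Parts of the Bak1 exons overlap the antisense gene Ggnbp1.

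Bcl2l11 (Bim), a BH3-only activator of Bax and Bak1, rose over 24 h in the 3 lines. The gene (ENSMUSG00000027381) lies at chr2:128126038-128162547 on the plus strand. It went from 9.83, 7.16 and 15.1 CPM to 18.3, 17.1 and 20.99 CPM in wt (log2 change 0.80 ± 0.32, adjusted p = 0.0407). In KO#1 it went from 11.2, 5.42 and 9.68 CPM to 16.3, 14.4 and 19.7 CPM (0.92 ± 0.32, adjusted p = 0.0271). In the KO#2-labelled libraries it went from 14.9, 10.7 and 9.78 CPM to 40.6, 34.1 and 21.3 CPM (1.44 ± 0.31, adjusted p = 0.00243). The times did not overlap in any line. The wt call held without wt 0 h replicate 3 and was lost in each of the other 5 fits that left out a library (0.57 to 0.84, adjusted p from 0.0638 to 0.178). The KO#1 call was lost without KO#1 0 h replicate 2 (0.68), KO#1 24 h replicate 1 (0.93) or KO#1 24 h replicate 3 (0.78). With offsets corrected for GC content and length the changes were 1.22 ± 0.26, 1.32 ± 0.26 and 1.64 ± 0.25, all called (adjusted p = 0.000858, 0.000641 and 8.49e-05). Over all genes in wt, the median change over 24 h went from 0.83 in the shortest of 5 bins of exon length to -0.41 in the longest. At 24 h Bcl2l11 was higher in the KO#2-labelled libraries than in KO#1 (0.93 ± 0.31, adjusted p = 0.0250) but did not pass the test against wt (0.76 ± 0.30, adjusted p = 0.0556). The value against wt was called without KO#2 24 h replicate 3 (0.99, adjusted p = 0.0210), with the replicate block (0.77, adjusted p = 0.0437), without a filter on low counts (0.80, adjusted p = 0.0434), with at least 10 counts in every library (0.91, adjusted p = 0.0218), with protein-coding genes (0.85, adjusted p = 0.0303), with library sizes alone (1.81, adjusted p = 0.000671) and with DESeq2 (0.76, adjusted p = 0.0375), and with the corrected offsets it was 0.23 (adjusted p = 0.483). The call against KO#1 was lost in 4 of the 6 fits without 1 library of these groups, those without KO#1 24 h replicate 1 or 2 (0.87 and 0.80) and without KO#2 24 h replicate 1 or 2 (0.72 and 0.88).

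Apaf1, the scaffold of the apoptosome, did not pass the test in any comparison. The gene (ENSMUSG00000019979) lies at chr10:90989311-91082770 on the minus strand. At 0 h it had 24.9 to 37.2 CPM in wt, 24.6 to 41.2 CPM in KO#1 and 42.9 to 55.6 CPM in the KO#2-labelled libraries. The ranges at 24 h were 23.7 to 32.0, 23.8 to 36.0 and 33.0 to 48.3 CPM. The KO#2-labelled libraries lay above every wt library at both times, with log2 differences of 0.58 ± 0.25 at 0 h (adjusted p = 0.0695) and 0.58 ± 0.25 at 24 h (adjusted p = 0.0707). The 24 h difference passed without KO#2 24 h replicate 3 (0.71, adjusted p = 0.0490). Over time the log2 changes were -0.24, -0.23 and -0.24 in the 3 lines, none of them called.

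Mcl1, a short-lived guardian, was lower than wt in KO#1 and the KO#2-labelled libraries at 0 h. The gene (ENSMUSG00000038612) lies at chr3:95658788-95663176 on the plus strand. At 0 h it had 602, 555 and 570 CPM in wt, 297, 283 and 345 CPM in KO#1 and 297, 274 and 263 CPM in the KO#2-labelled libraries. Every KO#1 and KO#2-labelled library lay well below every wt library, and the log2 differences were -0.90 ± 0.20 (adjusted p = 0.00967) and -1.05 ± 0.20 (adjusted p = 0.000998). At 24 h the values were 796, 650 and 681 CPM in wt, 394, 376 and 400 CPM in KO#1 and 441, 497 and 569 CPM in the KO#2-labelled libraries. The groups again did not overlap with wt. For KO#1 the difference was -0.86 ± 0.20 (adjusted p = 0.00891), and for the KO#2-labelled libraries it was -0.50 ± 0.20 and did not pass (adjusted p = 0.0576). The latter was called lower with the replicate block and with DESeq2, and with library sizes alone as the scale it was 0.54. The KO#1 call at 24 h was lost without wt 24 h replicate 1 (-0.75, adjusted p = 0.0617) or KO#1 24 h replicate 2 (-0.81, adjusted p = 0.0577). In the fit of only the groups compared, the KO#1 call at 0 h was also lost (-0.91, adjusted p = 0.120). Both KO#1 calls were lost without a filter on low counts (-0.89, adjusted p = 0.0909 at 0 h, and -0.85, adjusted p = 0.0966 at 24 h) and with library sizes alone as the scale (-0.74, adjusted p = 0.213, and -0.90, adjusted p = 0.0927). Over 24 h Mcl1 rose in the KO#2-labelled libraries (0.85 ± 0.20, adjusted p = 0.00453), and the values in wt (0.30 ± 0.20) and KO#1 (0.34 ± 0.20) were not called. With offsets corrected for GC content and length the wt value was 0.56 ± 0.20 and was called (adjusted p = 0.0258). The difference in response from wt was 0.55 ± 0.28 (adjusted p = 0.240 by edgeR) and was called by DESeq2 (0.61, adjusted p = 0.0285).

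Bcl2l1, the gene of Bcl-xL, lies at chr2:152780668-152831728 on the minus strand (ENSMUSG00000007659). It had 62.9, 40.1 and 41.8 CPM in wt, 54.7, 60.3 and 31.6 CPM in KO#1 and 28.9, 24.7 and 27.5 CPM in the KO#2-labelled libraries at 0 h. The last group was below all the others, by -0.83 ± 0.29 against wt (adjusted p = 0.0350) and by -0.85 ± 0.29 against KO#1 (adjusted p = 0.0406). Without wt 0 h replicate 1, the highest library, the first difference was -0.63 and not called (adjusted p = 0.137), and it was also lost without any 1 of the 3 libraries labelled KO#2 (-0.76 to -0.87). At 24 h the values were 25.4, 28.5 and 40.8 CPM in wt, 31.0, 30.6 and 48.7 CPM in KO#1 and 25.9, 21.2 and 14.2 CPM in the KO#2-labelled libraries. The difference of the last from KO#1 was called (-0.85 ± 0.29, adjusted p = 0.0307) and that from wt was not (-0.63 ± 0.29, adjusted p = 0.0970). The call against KO#1 at 0 h held without KO#1 0 h replicate 3 and was lost without any other library of the 2 groups (-0.70 to -0.89), and that at 24 h was lost without KO#1 24 h replicate 3 (-0.63), KO#2 24 h replicate 2 (-0.88) or KO#2 24 h replicate 3 (-0.64). The change over time was -0.60, -0.40 and -0.41 in the 3 lines, none called, and in wt it passed without wt 24 h replicate 3 (-0.88, adjusted p = 0.0352).

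Bcl2 itself (ENSMUSG00000057329, chr1:106538178-106714274, minus strand), the founding guardian, was barely detected. No library held more than 24 counts of it. At 0 h it had 0, 0.0917 and 0.250 CPM in wt, 0.521, 0 and 0.175 CPM in KO#1 and 0.974, 0.539 and 0.479 CPM in the KO#2-labelled libraries. The sum was 46 counts in the last group against 4 in wt, a ratio of rates of 4.40 with an exact 95% interval of 1.61 to 16.8 that covers counting error only. Bcl2 entered the test only through the KO#2-labelled libraries at 0 h, the group where it was highest, so its value there is a description. Its fitted log2 difference from wt there was 2.11. The adjusted p-value under 0.05 that edgeR gave it is not read as a test result. In each of the 6 fits that left out 1 library of the 2 groups that p-value was above 0.05 (log2 values of 1.73 to 3.12). At 24 h the libraries held 1 to 9 counts, or 0.0586 to 0.400 CPM, and no comparison was called.

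**Figure D2:**
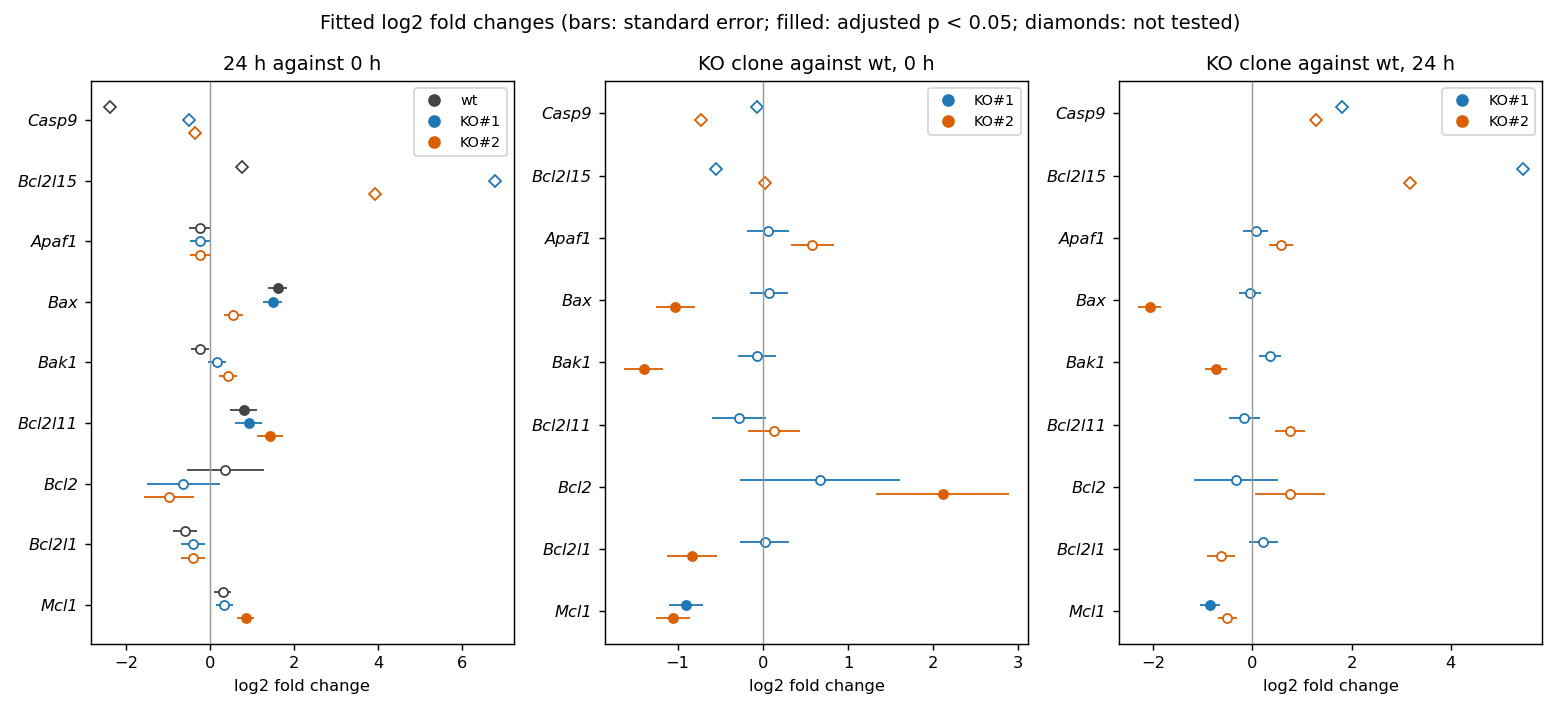
Fitted log2 fold changes (x axis) of each gene over 24 h in each line and of KO#1 and the KO#2-labelled libraries against wt at 0 h and 24 h, with standard errors as bars and filled points for adjusted p-values under 0.05. Casp9 and Bcl2l15, shown as diamonds, were not tested, and the filled point of Bcl2 in the KO#2-labelled libraries at 0 h is a description. Bax in the KO#2-labelled libraries at 24 h had the lowest value among the 7 tested genes in the panels, -2.07.

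Counted over the 7 family members, 2 were called over 24 h in wt (Bax and Bcl2l11, both higher), where 50.7% of all genes were called, 26.0% higher and 24.7% lower. In KO#1 the 2 called were again Bax and Bcl2l11, beside 40.8% of all genes (20.1% higher and 20.6% lower). Among the KO#2-labelled libraries Bcl2l11 and Mcl1 were called, both higher, beside 26.0% of all genes (12.7% higher and 13.3% lower). Against wt, Mcl1 alone was called in KO#1, lower at 0 h, where 6.67% of all genes were called (3.99% higher and 2.68% lower), and lower at 24 h, where 9.84% were (6.25% higher and 3.60% lower). In the KO#2-labelled libraries 4 members were called at 0 h, Bax, Bak1, Bcl2l1 and Mcl1, all lower, beside 38.1% of all genes (21.5% higher and 16.6% lower). Bcl2, higher there, passed the filter only through this group and is left out of this count. With 1 library left out the count was 4 without wt 0 h replicate 2 or 3 and 3 in the other 4 fits. At 24 h, 2 members were called, Bax and Bak1, both lower, beside 37.3% of all genes (21.3% higher and 16.0% lower), and the count was 1 without wt 24 h replicate 3 or KO#2 24 h replicate 1 and 4 without KO#2 24 h replicate 3. KO#1 and the KO#2-labelled libraries differed in 3 members at 0 h, Bax, Bak1 and Bcl2l1, all lower in the latter, beside 26.4% of all genes (15.1% higher and 11.3% lower). At 24 h they differed in 4, Bcl2l11 higher and Bax, Bak1 and Bcl2l1 lower in the latter, beside 35.4% of all genes (19.3% higher and 16.1% lower). These comparisons against wt share the wt libraries.

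The counts over all genes depended on single libraries. For KO#1 against wt they went from 1108 to 598 at 0 h without wt 0 h replicate 3, and from 1636 at 24 h to 1029 without wt 24 h replicate 1 and 1028 without wt 24 h replicate 2. Over 24 h in the KO#2-labelled libraries they went from 4324 to 2675 without KO#2 0 h replicate 1 and 2534 without KO#2 24 h replicate 3, and for KO#2 against KO#1 at 0 h from 4393 to 2602 without KO#2 0 h replicate 1. The share of calls that were higher depended on the scale. For KO#2 against wt it was 56.4% at 0 h and 57.1% at 24 h, and with offsets corrected for GC content and length it was 37.6% and 41.6%, so that most calls were then lower. For KO#2 against KO#1 it went from 57.3% and 54.5% to 31.2% and 40.5%. With library sizes alone these 4 shares were 90.3%, 94.8%, 90.5% and 95.5%, and the share went from 51.3% to 21.4% over 24 h in wt, from 49.4% to 11.4% over 24 h in KO#1, from 59.8% to 71.3% for KO#1 against wt at 0 h and from 64.8% to 94.4% for the response of the KO#2-labelled libraries.

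The median log2 difference of the 7 members between the KO#2-labelled libraries and wt was -0.83 at 0 h and -0.50 at 24 h, beside 0.10 and 0.20 over all genes tested. Without Bcl2, which is in these medians, those of the other 6 members were -0.93 and -0.56. With offsets corrected for GC content and length the medians of the 7 were -0.47 and -0.25, and of the 6 were -0.54 and -0.30, beside -0.13 and -0.04 over all genes. With library sizes alone as the scale, the median of all genes at 24 h moved from 0.20 to 1.24. Apaf1 and Bcl2l11 were then called higher and Bax lower, beside 58.2% and 3.20% of all genes. Bcl2, which passed the filter only through the KO#2-labelled libraries at 0 h, was also higher and is left aside. Beside these comparisons, 4 of the 8 fibroblast markers were higher at 0 h and 6 at 24 h, where 21.5% and 21.3% of all genes were, and their part in the values was not tested.

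For the difference in response, edgeR called 0 of the 7 members in KO#1 (0.391% of all genes were called, 0.253% higher and 0.138% lower) and 0 in the KO#2-labelled libraries (1.47%, 0.951% higher and 0.517% lower). At an unadjusted p-value under 0.05 the counts were 0 and 2, beside 10.1% and 23.6% of all genes, so 2 of 7 was near the background. DESeq2 called 0 and 2, the latter being Bax and Mcl1, beside 1.66% and 8.48% of all genes. Casp9 and Bcl2l15, the genes chosen on this contrast, are left out of these counts.

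Log2 differences between the KO#2-labelled libraries and wt followed the GC content of the genes. With the genes in 5 equal bins of GC content, the median fell from the lowest to the highest bin, from 1.03 to -0.69 at 0 h and from 0.62 to -0.21 at 24 h. With exon length the median at 24 h went from -0.24 in the shortest of 5 bins to 0.63 in the longest. Exons of Bax, Casp9 and Bak1 were rich in GC, at the percentiles 92.5, 90.4 and 84.4 of all genes with a value, whereas those of Apaf1, Bcl2 and Bcl2l15 were at 24.2, 22 and 17.9. Offsets corrected for GC content and length kept Bax lower in the KO#2-labelled libraries (-0.80 ± 0.23 at 0 h, adjusted p = 0.0128, and -1.87 ± 0.23 at 24 h, adjusted p = 8.74e-06). Bak1 stayed called at 0 h (-0.94 ± 0.17, adjusted p = 0.000620) but not at 24 h (-0.36 ± 0.17, adjusted p = 0.0986). Mcl1 stayed called at 0 h (-0.61 ± 0.20, adjusted p = 0.0271). Bcl2l1 was called at 24 h (-0.64 ± 0.21, adjusted p = 0.0233) in place of 0 h (-0.47 ± 0.21, adjusted p = 0.0979). The positive values of Apaf1 turned to -0.15 ± 0.23 and -0.08 ± 0.23, and the value of Bcl2 at 0 h, a description, was 1.40. Between KO#1 and the KO#2-labelled libraries, Bcl2l11 was no longer called at 24 h (0.43 ± 0.25, adjusted p = 0.195) and Bcl2l1 no longer at 0 h (-0.56 ± 0.21, adjusted p = 0.0663), while Mcl1 was called higher in the latter at 24 h (0.69 ± 0.20, adjusted p = 0.0133). For Casp9 and Bcl2l15 at 24 h the corrected differences from wt were 1.33 and 3.14, beside the uncorrected 1.28 and 3.18, while at 0 h they were -0.23 and -0.55, beside -0.73 and 0.03.

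**Figure D3:**
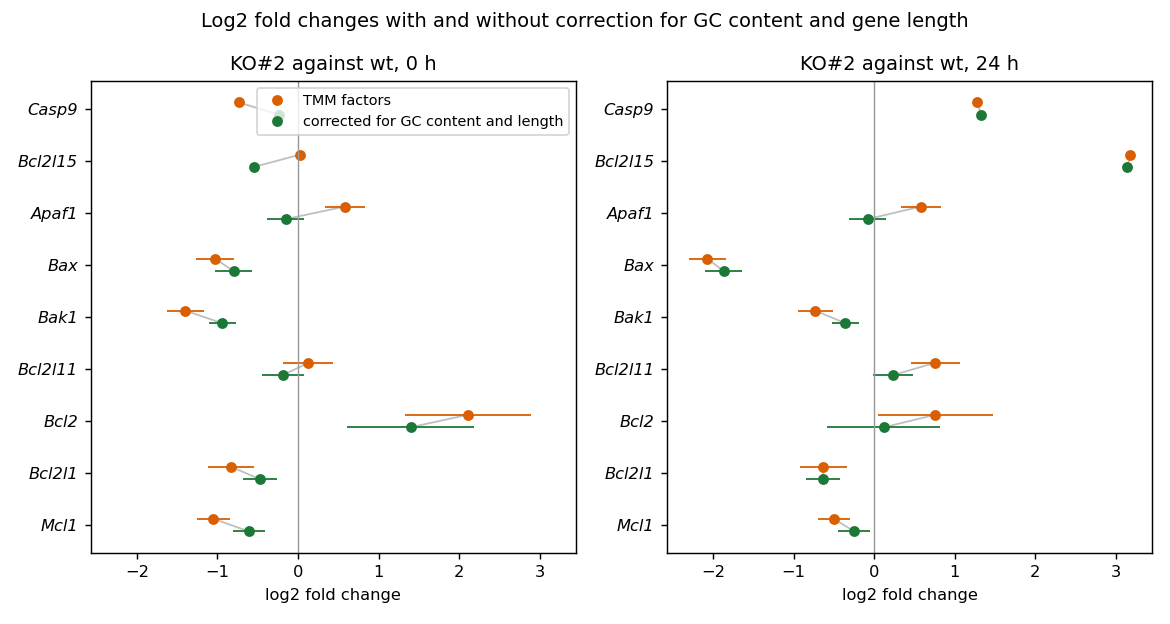
Log2 fold change (x axis) of the KO#2-labelled libraries against wt at 0 h and 24 h with TMM scaling alone and with offsets corrected for GC content and gene length, with standard errors as bars where a test was made. Bax moved from -2.07 to -1.87 at 24 h, and Apaf1 crossed 0 at both times.

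Of 32 further genes of the intrinsic pathway, 28 passed the filter on low counts. The 4 that did not were the guardians Bcl2l10, Bcl2a1a, Bcl2a1b and Bcl2a1d. Over 24 h in wt, 12 rose and 5 fell (50.7% of all genes were called). In KO#1, 7 rose and 3 fell (40.8% of all genes), and in the KO#2-labelled libraries, 3 rose and 2 fell (26.0% of all genes). All 5 genes of proteins released from mitochondria (Cycs, Diablo, Htra2, Aifm1 and Endog) rose in wt, where 26.0% of all genes were called higher. In KO#1 3 of them rose (Cycs, Aifm1 and Endog), beside 20.1% of all genes. In the KO#2-labelled libraries edgeR called 0 of them, beside 12.7% of all genes higher, so 0 of 5 lay near that background. The difference in response was not called for any of the 5. The KO#1 call of Aifm1 (0.78 ± 0.30, adjusted p = 0.0467) held without KO#1 0 h replicate 3 and was lost without any 1 of the other 5 libraries (0.55 to 0.85), and it was -0.04 with library sizes alone as the scale.

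Cytochrome c, encoded by Cycs, rose in wt (2.43 ± 0.50, adjusted p = 0.000724) and KO#1 (1.42 ± 0.48, adjusted p = 0.0250), the latter call being lost without KO#1 0 h replicate 1 or 2 (1.13 and 1.11) or KO#1 24 h replicate 1 or 2 (1.16 and 1.27). Endog, a mitochondrial nuclease, rose in wt (1.48 ± 0.30, adjusted p = 0.000664) and in KO#1 (1.92 ± 0.30, adjusted p = 0.000123). Diablo, which relieves caspases of their inhibitors, rose in wt (1.02 ± 0.26, adjusted p = 0.00369). Casp8, the initiator of the extrinsic pathway, was at 0.233 to 1.65 CPM in the group means, and its wt rise (2.16 ± 0.80, adjusted p = 0.0314) was lost in 5 of 6 fits without 1 library (1.83 to 2.40), all but that without wt 24 h replicate 3.

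Among the BH3-only genes, Pmaip1 (Noxa), whose product binds Mcl1, rose over 24 h in all 3 lines (1.33 ± 0.30, 1.27 ± 0.31 and 1.49 ± 0.30) and was lower than wt in KO#1 and the KO#2-labelled libraries at both times. It had 41.5 ± 12.4 CPM in wt, 16.0 ± 2.33 in KO#1 and 12.3 ± 1.65 in the KO#2-labelled libraries at 0 h, and 105 ± 21.2, 38.8 ± 16.3 and 34.4 ± 10.0 CPM at 24 h (SD, n = 3). The log2 differences from wt were -1.38 ± 0.31 and -1.77 ± 0.31 at 0 h (adjusted p = 0.00990 and 0.000516) and -1.44 ± 0.30 and -1.61 ± 0.30 at 24 h (adjusted p = 0.00426 and 0.000587). The call in KO#1 at 0 h was lost without wt 0 h replicate 3 (-1.23, adjusted p = 0.0583). Hrk fell in all 3 lines (-3.87 ± 0.44, -4.79 ± 0.54 and -1.77 ± 0.39). Bad rose in all 3 (1.55 ± 0.24, 2.05 ± 0.24 and 0.87 ± 0.23), the last being lost without KO#2 0 h replicate 1 (0.71). Bbc3 (Puma) was called only in the KO#2-labelled libraries, lower than wt at 0 h (-0.96 ± 0.35, adjusted p = 0.0395) and 24 h (-1.22 ± 0.35, adjusted p = 0.0111) and lower than KO#1 at 24 h (-1.10 ± 0.35, adjusted p = 0.0202). The 0 h difference turned to 0.17 under the correction for GC content and length and was not called without wt 0 h replicate 1 (-0.48), KO#2 0 h replicate 2 (-1.02) or KO#2 0 h replicate 3 (-0.74). The difference from KO#1 was not called without KO#1 24 h replicate 3 (-1.04) or KO#2 24 h replicate 3 (-0.95). Bid, which links Casp8 to Bax and Bak1, was not called in any comparison. Bcl2l14, a Bcl2-like gene of less settled role, fell in wt (-1.52 ± 0.35, adjusted p = 0.00181) and in the KO#2-labelled libraries (-1.61 ± 0.33, adjusted p = 0.00174).

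Against wt, 1 of the 28 genes was higher and 4 lower in KO#1 at 0 h (6.67% of all genes were called), and 1 was higher and 3 lower at 24 h (9.84%). Among the KO#2-labelled libraries, 5 were higher and 9 lower at 0 h (38.1%), and 4 were higher and 11 lower at 24 h (37.3%). Bcl2l12 was lower than wt at both times, by -1.21 ± 0.25 and -0.92 ± 0.24 in KO#1 and by -2.05 ± 0.25 and -1.67 ± 0.24 in the KO#2-labelled libraries. The KO#1 call at 24 h held only without wt 24 h replicate 1 or KO#1 24 h replicate 3 and was lost without any 1 of the other 4 libraries (-0.84 to -0.85). Hrk was lower than wt in KO#1 at 24 h (-2.57 ± 0.56, adjusted p = 0.00589) and Birc3, an inhibitor of apoptosis gene, was higher (1.68 ± 0.39, adjusted p = 0.00953), the latter not without wt 24 h replicate 1 (1.42, adjusted p = 0.0656). In the KO#2-labelled libraries at 24 h the difference of Hrk from wt was 0.94 ± 0.42 and was not called (adjusted p = 0.0825). Birc3 was also higher than wt in the KO#2-labelled libraries, by 1.68 ± 0.40 at 0 h (adjusted p = 0.00439) and by 1.19 ± 0.39 at 24 h (adjusted p = 0.0227), the 24 h call being lost without wt 24 h replicate 1 (0.90), wt 24 h replicate 2 (1.14) or KO#2 24 h replicate 2 (1.07) and with the correction for GC content and length (0.76). Bmf was lower than wt at 0 h in KO#1 (-1.98 ± 0.34, adjusted p = 0.00119) and in the KO#2-labelled libraries (-1.77 ± 0.33, adjusted p = 0.000795). Against KO#1, 3 genes were higher and 5 lower in the KO#2-labelled libraries at 0 h (26.4% of all genes were called), and 6 were higher and 9 lower at 24 h (35.4%). The smallest adjusted p-values belonged at 0 h to Xiap (1.39), Birc6 (1.07) and Endog (-1.22). At 24 h they belonged to Endog (-2.52), Bad (-1.82) and Hrk (3.51).

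In the KO#2-labelled libraries, Endog was lower than wt at 24 h (-1.72 ± 0.29, adjusted p = 0.000245) and Birc5 (survivin) was lower at 0 h (-0.66 ± 0.25, adjusted p = 0.0471) and 24 h (-1.02 ± 0.25, adjusted p = 0.00445). The 0 h call of Birc5 was lost in each of the 6 fits without 1 library (-0.51 to -0.78), and the 24 h value was 0.01 with library sizes alone as the scale. Xiap, an inhibitor of caspases that include Casp9, was higher by 1.54 ± 0.28 at 0 h (adjusted p = 0.000633) and by 1.22 ± 0.27 at 24 h (adjusted p = 0.00226), and Birc6 was higher by 1.41 ± 0.24 at 24 h (adjusted p = 0.000284). Exons of both are poor in GC, and after the correction for GC content and length neither was called (Xiap 0.48 and 0.35, Birc6 0.10 at 24 h).

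**Figure D4:**
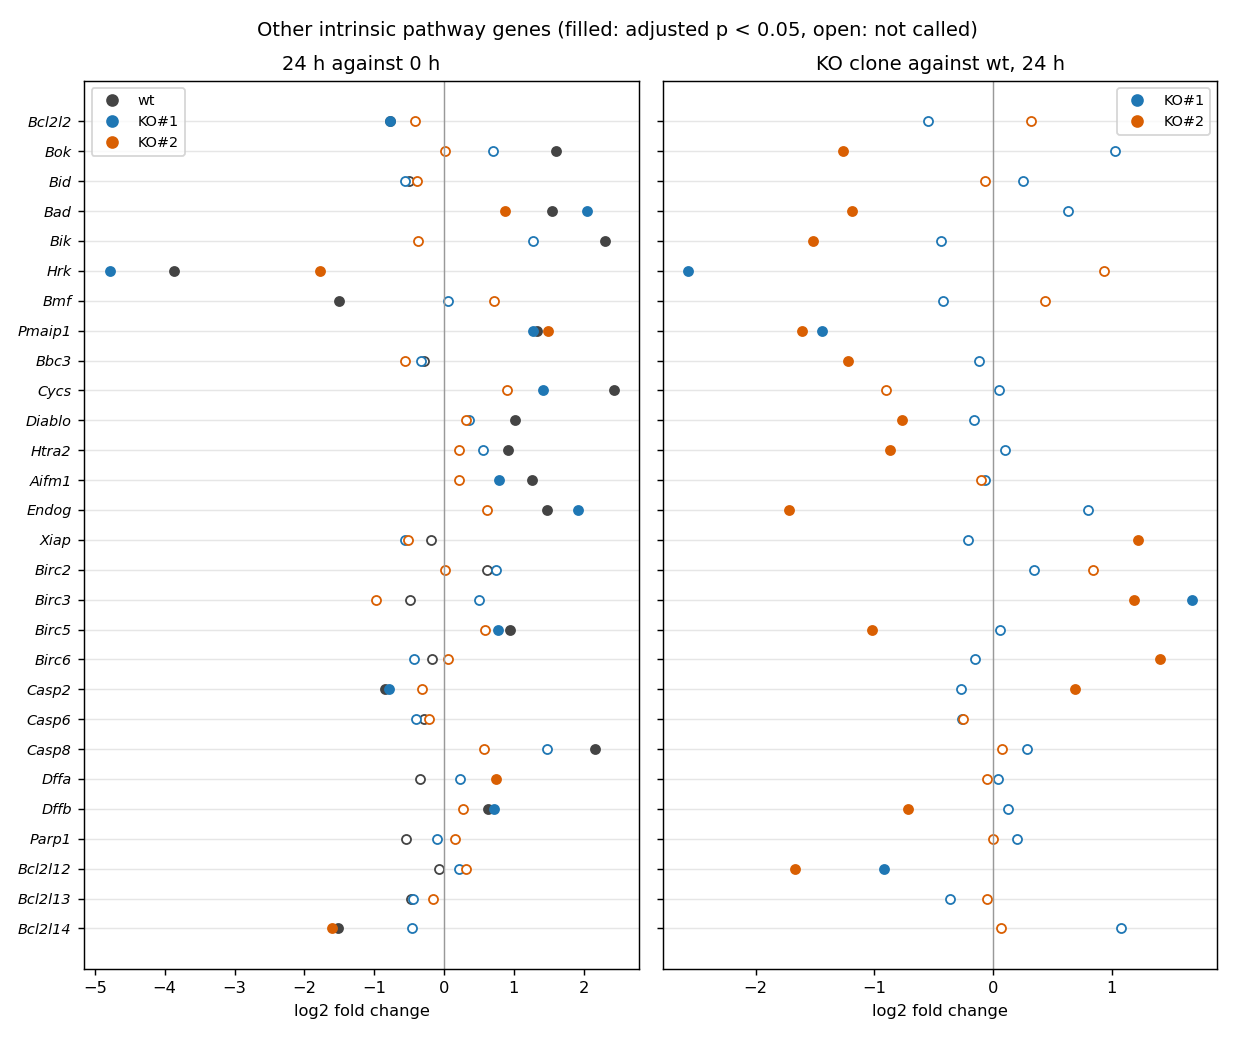
Log2 fold changes (x axis) of the 28 other pathway genes over 24 h in each line and of KO#1 and the KO#2-labelled libraries against wt at 24 h, filled where the adjusted p-value was under 0.05. Pmaip1 rose in all 3 lines, and Pmaip1 and Bcl2l12 were lower than wt in KO#1 and the KO#2-labelled libraries.

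Genes with a profile most like that of Casp9 over the 18 libraries, by Pearson's r of log2 CPM among 10707 genes, were Epb4.1l1 (0.932), Stat5b (0.926), Llgl1 (0.924) and Itfg3 (0.922). The mean of Epb4.1l1 was 66.0 CPM at 0 h and 12.7 CPM at 24 h in wt, and at 24 h it was 40.5 CPM in KO#1 and 35.9 CPM in the KO#2-labelled libraries. The most opposite profiles were those of Oat (-0.910) and Skiv2l2 (-0.901). For Bcl2l15 the most similar were Nr2c1 (0.914), Tgm1 (0.870), Pon2 (0.858), Pcnxl2 (0.858) and 2410017I17Rik (0.854), and the most opposite were Eef2kmt (-0.924) and Cpxm1 (-0.888). At 24 h Pon2 had a mean of 21.1 CPM in KO#1 and 10.4 CPM in the KO#2-labelled libraries against 2.42 CPM in wt. Over the same libraries r was -0.13 between Casp9 and Bcl2l15. The libraries fall into 6 groups of replicates, and these values carry no test.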

How the data were processed

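Per the methods of the study, stranded total RNA libraries were sequenced as paired ends and processed with nf-core rnaseq 1.2.2 (Trim Galore, SortMeRNA, STAR to GRCm38). The authors deposited raw counts per gene. The annotation release and strand setting are not given in the sources used here. Gene positions came from GENCODE M21, which holds 45143 of the 45706 identifiers, and 0 of 153 pairs of libraries were identical.

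Counts were analysed with edgeR 4.0.16 (R 4.3.3): filterByExpr with a minimum count of 10, TMM factors, and 1 quasi-likelihood model of 6 groups over 18 libraries. Genes were called at a Benjamini-Hochberg adjusted p-value under 0.05 over all 16619 genes. CPM used TMM-scaled library sizes, and log2 CPM a prior count of 2. DESeq2 1.42.0, other scalings, filters and sample sets, and offsets corrected for GC content and length by splines with 5 degrees of freedom (added after seeing the data) were alternatives. The code was tested on simulated data with 100 changed genes of each size. Of 2-fold changes it recovered 5% over 24 h in wt and 5% for KO#1 against wt at 24 h. Of 4-fold changes it recovered 62% and 61%. For the response of KO#1 it recovered 0% of 2-fold and 17% of 4-fold changes. A gene that was not called is therefore not shown to be unchanged. Members and lists were chosen with earlier results of these data known. Besides all 9 members, the text names 8 fixed pathway genes (Bbc3, Pmaip1, Bid, Casp8, Xiap, Birc5, Cycs and Diablo), up to 3 called genes with the smallest adjusted p-value in each comparison whose replicates did not overlap, and the 5 most and 2 least similar profiles; other pathway genes were named after their values were seen. A few genes that this rule or the pathway list also takes are not reported here and are left out of the pathway counts. Replicate numbers paired KO#1 and wt at 24 h (r of deviations from 0.223 to 0.587 in the 3 pairs), where the block changed no member's call.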

Additional observations from a re-analysis of the deposited data

Results flagged for a closer look

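Bmf, a BH3-only gene, was the only 1 of the 35 tested family and pathway genes whose response to the induction differed from wt by the interaction test of edgeR, and only in the KO#2-labelled libraries (log2 difference 2.20 ± 0.46, adjusted p = 0.0218). Over all genes 1.47% were called there and 0.391% in KO#1, so 1 of 35 was near that background. Against wt, Bmf was lower in the KO#2-labelled libraries at 0 h (-1.77 ± 0.33, adjusted p = 0.000795) and was not called at 24 h (0.44 ± 0.32, adjusted p = 0.297). In wt it fell from 33.1 ± 6.05 to 11.8 ± 2.84 CPM, and in the KO#2-labelled libraries it went from 9.77 ± 1.74 to 15.9 ± 4.23 CPM (SD, n = 3). KO#1 had a difference of 1.56 ± 0.47 that did not pass (adjusted p = 0.182). The call was lost in 5 of the 12 fits without 1 library (2.06 to 2.19), those without wt 0 h replicate 3, wt 24 h replicate 1 or 2, KO#2 0 h replicate 2 or KO#2 24 h replicate 1, and held under the other alternatives, with values from 1.81 to 2.77.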

How the results depend on the processing

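Values below are log2 differences unless counts are named, and for each change the cause was not tested. Of 959 member values under other settings 836 kept their direction and side of the threshold, as did 623 of 702 with 1 library left out. For Casp9 and Bcl2l15, which had no test, a value counted as kept when it moved by less than the SD of log2 CPM within groups. With library sizes alone as the scale, which moved the median of all genes for KO#2 against wt at 24 h from 0.20 to 1.24 and the share of calls that were higher from 57.1% to 94.8%, directions turned over 24 h for Bcl2 (-0.31) and Mcl1 (-0.30) in wt and for Bak1 (-0.57), Mcl1 (-0.46), Aifm1 (-0.04), Birc5 (-0.02) and Dffb (-0.07) in KO#1. Between lines they turned for Bak1 in KO#1 at 0 h (0.10), and in KO#2 at 24 h for Bak1 (0.29), Bcl2l1 (0.40), Mcl1 (0.54), Diablo (0.24), Htra2 (0.16), Birc5 (0.01) and Dffb (0.30). They turned for the response of KO#1 in Apaf1 (-0.13), Bcl2l11 (-0.05) and Mcl1 (-0.16), for the response of KO#2 in Apaf1 (0.58), and for KO#2 against KO#1 in Mcl1 at 0 h (0.16) and Casp9 (0.51), Bcl2l1 (0.18), Htra2 (0.08), Dffb (0.21), Bcl2l12 (0.30) and Bcl2l14 (0.01) at 24 h. Other scalings and sets turned only values near 0, Bcl2l1 in KO#1 at 0 h (-0.01 with RLE factors and with DESeq2, -0.00 with protein-coding genes) and the response of Apaf1 in KO#2 (0.04 with RLE factors, 0.05 with DESeq2, 0.09 with protein-coding genes, 0.03 with only the groups compared, 0.00 with at least 10 counts in every library).

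Offsets corrected for GC content and length, chosen after seeing the data, turned KO#2 against wt in Apaf1 (-0.15 at 0 h and -0.08 at 24 h), Bcl2l11 (-0.19), Bbc3 (0.17) and Birc6 (-0.03) at 0 h, and KO#2 against KO#1 in Apaf1 (-0.16 at 0 h, -0.22 at 24 h), Mcl1 (0.24) and Birc6 (-0.19) at 0 h. They also turned the response of KO#1 in Mcl1 (-0.09) and of KO#2 in Apaf1 (0.07) and Bcl2l1 (-0.16). With the replicate block as well, these values were -0.14, -0.08, -0.18, 0.16, -0.03, -0.16, -0.22, 0.24, -0.17, -0.09, 0.07 and -0.19 in the same order. Of the members without a test, they turned Bcl2l15 in KO#2 against wt (-0.55) and Casp9 in KO#1 against wt (0.10) at 0 h.

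The number of family members called, here counted with Bcl2, moved with library sizes alone over 24 h in KO#2 (1), in KO#1 against wt (0 at 0 h and 0 at 24 h), in KO#2 against wt (3 and 4) and in KO#2 against KO#1 at 0 h (1). It was 0 for KO#1 against wt at both times without a filter and 0 at 0 h with only the groups compared. For KO#2 against wt it was 3 at 0 h with the corrected offsets, with and without the replicate block, and 4 at 24 h with at least 10 counts in every library, protein-coding genes, DESeq2 or the replicate block alone. The block added Bcl2l11 (0.77) and Mcl1 (-0.50) at 24 h and lost Bcl2 at 0 h (2.03), and the same replicate numbers paired the samples by their correlations only for KO#1 against wt at 24 h. DESeq2 called 2 members for the response of KO#2.

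With 1 library left out the counts were 1 to 2 over 24 h in wt and in KO#1 and 2 to 3 in KO#2, 3 to 4 for KO#2 against wt at 0 h and 1 to 4 at 24 h, 0 to 1 for KO#1 against wt at 24 h, and 2 to 3 for KO#2 against KO#1 at 0 h and 24 h. Uncalled values crossed 0 over 24 h in wt for Bcl2 (-0.30 to 1.39) and in KO#1 for Bak1 (-0.07 to 0.31) and Bcl2 (-0.99 to 0.25). They did so in KO#1 against wt at 0 h for Apaf1 (-0.12 to 0.24), Bax (-0.03 to 0.18), Bak1 (-0.18 to 0.10), Bcl2l11 (-0.51 to 0.10), Bcl2 (-0.20 to 1.69) and Bcl2l1 (-0.15 to 0.26), at 24 h for Apaf1 (-0.12 to 0.26), Bax (-0.12 to 0.07), Bcl2 (-0.81 to 0.35) and Bcl2l1 (-0.01 to 0.50), and in KO#2 at 0 h for Bcl2l11 (-0.11 to 0.51). For the response of KO#1 they did so in Apaf1 (-0.19 to 0.19), Bcl2l11 (-0.26 to 0.36), Bcl2l1 (-0.04 to 0.47) and Mcl1 (0.00 to 0.14), and for that of KO#2 in Apaf1 (-0.15 to 0.19) and Bcl2l1 (-0.01 to 0.46).

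Over all genes, the calls for the response of KO#2 went from 244 to 51 to 563 with 1 library left out, 1409 with DESeq2, 1717 without a filter, 801 with library sizes alone, 522 with the corrected offsets, 910 with these and the block, 446 with the block and 469 with protein-coding genes, and those for the response of KO#1 from 65 to 6 to 39, 276 with DESeq2, 307 without a filter, 4 with library sizes alone and 190 with the corrected offsets. For KO#1 against wt the calls went from 1108 at 0 h and 1636 at 24 h to 478 and 822 with at least 10 counts in every library. They were 441 and 1841 with only the groups compared, and 1740 and 2483 with the corrected offsets and the block. The shallowest library was wt 0 h replicate 1, with 3466436 counts, and Bcl2 and Bcl2l15 had between 0 and 26 counts per library at 0 h.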
